A study of Mus musculus with 3 samples.

Results

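Cycling TEa cells of the spleen were the wild-type spleen cells that carried transcripts of dividing cells 7 days after heart transplantation. They were chosen by their counts. A barcode needed no fewer than 1000 unique molecular identifiers (UMIs, which count captured transcripts) and 500 genes, with 10% or less of its UMIs mitochondrial. It also needed at least 6 UMIs of Cd3d, Cd3e, Cd3g, Trac, Trbc1 and Trbc2 and at most 1 UMI of Lyz2. Of 6556 spleen cells that passed, 202 held at least 5 UMIs of a panel of 10 genes (Mki67, Top2a, Ccnb1, Ccnb2, Cdk1, Birc5, Cenpf, Tpx2, Ube2c and Rrm2) and were called cycling. They were set against 6020 cells of the same library with 0 or 1 panel UMI, called non-cycling, and 334 cells lay between. TEa cells are CD4+ T cells with a transgenic receptor for a BALB/c I-E alpha alloantigen. Naive TEa cells with a congenic mark were transferred to C57BL/6 mice before a BALB/c heart was grafted, and were later sorted from heart and spleen. There was 1 library each of wild-type TEa cells from heart allograft, of wild-type TEa cells from spleen, and of Ldha-/- TEa cells from spleen. How many mice went into a library is not stated in the labels. Genes of the Ldha-/- library were not analysed here.

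A T cell that meets its antigen leaves quiescence and passes through G1, S, G2 and M phases. E2F factors drive the genes of DNA replication from late G1, and MuvB with B-Myb and FoxM1 drives the genes of mitosis later. In quiescent cells the DREAM complex, which also holds MuvB, represses these genes. Between divisions such a cell can take on effector functions, among them the Th1 programme of cytokines, cytotoxic granules and homing receptors, while genes of naive T cells such as Ccr7 and Tcf7 are turned down.

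With 1 library for each group, no difference below has a replicate check, and none was tested. Values are UMIs summed over the cells of a set and scaled to a total of 1000000 (CPM). Ratios are log2 of (CPM + 1) over (CPM + 1), so ratios of low genes come out too small. All 95% intervals are exact and cover counting error only.

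The label held for markers outside the panel. Plk1, a mitotic kinase, was at 68.2 CPM (59.5 to 77.8) in cycling and 0.242 CPM (0.125 to 0.423) in non-cycling spleen cells. Nusap1, which bundles spindle microtubules, was at 278 and 0.444 CPM, and Prc1, which builds the central spindle, at 261 and 8.79 CPM. Of the markers inside the panel, Mki67 was at 578 and 3.45 CPM and Cenpf at 273 and 0.162 CPM, as the rule itself demanded. Panel UMIs per cycling cell ran from 5 to 357 with a median of 34. At the limit, 9 cells held exactly 5 and 23 cells held 4. Replication and dNTP genes summed to 5355 CPM in the cells with 5 panel UMIs and 4467 CPM in those with 4, against 1803 CPM in cells with 0. Genes of the S100, galectin, annexin and migration list summed to 28511 CPM at 5 and 20919 CPM at 4 panel UMIs, against 6415 CPM at 0.

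Cycling cells made up 3.08% of spleen cells (2.68 to 3.53%) and 17.0% of 3990 wild-type heart cells (15.9 to 18.2%). They held more UMIs, with a median of 14613 UMIs and 3318 genes in cycling against 7904.5 UMIs and 2169 genes in non-cycling spleen cells, a ratio of 1.85 in UMIs. A threshold in raw UMIs favours deep cells, and RNA content was not measured apart from capture. With every cell thinned to 4000 UMIs and at least 3 panel UMIs, the shares were 2.88% (2.49 to 3.32%) in spleen and 14.0% (12.96 to 15.17%) in heart. Organ and library coincide, and their parts in that difference cannot be told apart.

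The cycling cells carried receptor segments of TEa cells, while T cell genes were part of the rule. Trbv19, the V beta segment of TEa cells, made up 67 of 76 Trbv UMIs (88.2%, 78.7 to 94.4%) in cycling and 78.9% (76.8 to 80.8%) in non-cycling cells. The Trav14 family made up 66.9% (61.3 to 72.1%) of Trav UMIs in cycling and 57.6% (56.2 to 59.1%) in non-cycling cells. Cd4 was at 120 and 215 CPM. Markers of other cells were low: in cycling cells Cd8a, Cd79a, Ms4a1, Adgre1, Flt3, Itgax, S100a8, Pf4, Kit and Cdh5 were at 0. Lyz2 was also at 0, but the rule had limited it. The dendritic cell list summed to 31.1 CPM in cycling and 6.14 CPM in non-cycling cells. The B cell list summed to 114 and 183 CPM, the plasma cell list to 53.2 and 47.3 CPM, and the gamma delta T cell list, nearly all Trdc, to 442 and 561 CPM. The NK cell list summed to 15.3 and 7.21 CPM, and the monocyte and macrophage list to 231 and 217 CPM. The erythroid list summed to 3221 and 109 CPM. Of 10296 haemoglobin UMIs in cycling cells, 10285 came from 1 barcode, and without the 2 haemoglobin-rich barcodes of the library the erythroid list was at 6.26 and 4.57 CPM. Leaving them out gave 10.9% of genes past 2-fold higher and 2.4% lower in cycling cells, close to the shares below. Doublets were not called. UMIs of Cd79a, Cd79b, Ms4a1, Cd8a, Cd8b1 or haemoglobin genes were found in 29 of 202 cycling cells. They were found in 434 of 6020 non-cycling cells, which were less deep. Of the cycling cells, 20 exceeded 3 times the library's median UMIs, against 2 of the non-cycling cells. The spleen library shared 26 barcodes with the Ldha-/- library, 4 of them cycling, and 6 with the heart library, none of them cycling.

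Of 5239 genes with at least 20 CPM in either set, 569 (10.9%) were higher in cycling than in non-cycling spleen cells by 2-fold or more, and 128 (2.44%) were lower by as much. The median log2 ratio over these genes was 0.11. Ribosomal protein genes took 24.7% of UMIs in cycling and 35.9% in non-cycling cells, which bears on every ratio through the total. When UMIs of ribosomal proteins, Malat1 and the mitochondrial genome were taken out of the totals, 6546 genes reached the floor. The median over these was -0.25, and 505 were higher and 554 lower. Higher genes were thus 47.7% of those past 2-fold, against 81.6% with full totals. The rule used this contrast, so the shares of members past 2-fold below are descriptions. The floor bears on them too, as a gene that reached 20 CPM only in cycling cells could only come out higher. Between 2 sets of non-cycling cells (those in the top quartile of the S100 list and the others), 3 histone genes, 3 kinetochore genes and 1 spindle gene reached it.

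**Figure D1:**
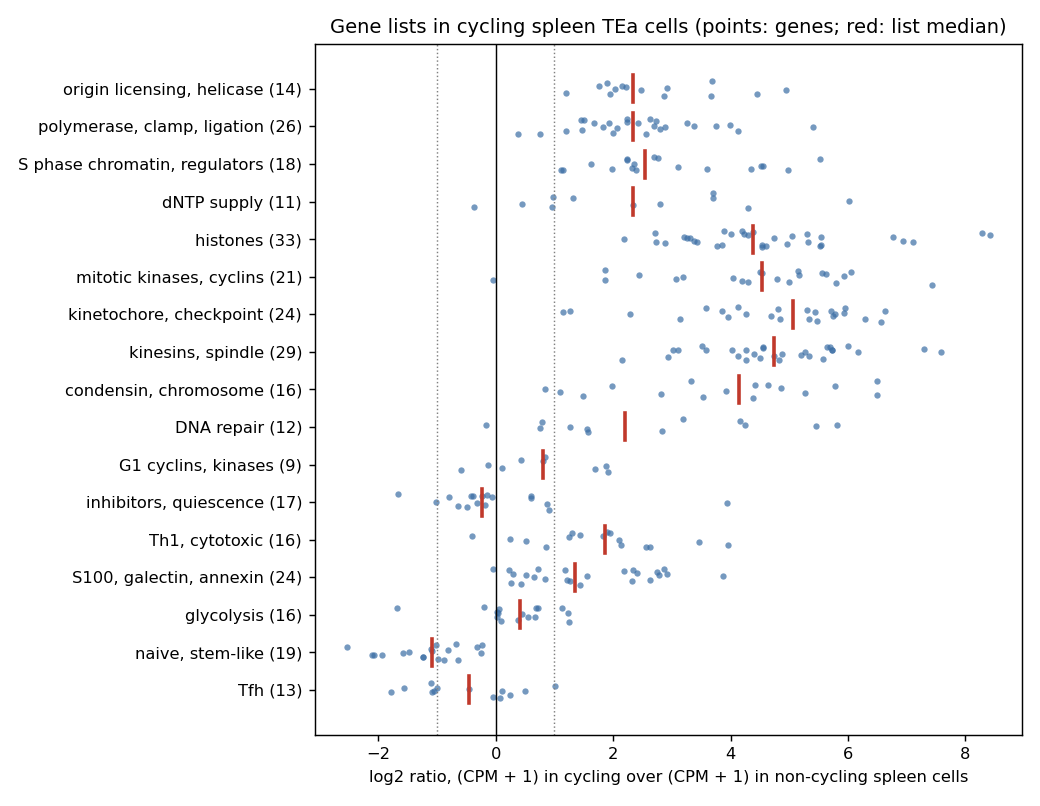
Log2 ratio of (CPM + 1) in 202 cycling over 6020 non-cycling spleen cells, by gene list. Each point is a gene with at least 20 CPM in either set (number in parentheses), red bars are list medians and dotted lines mark 2-fold. Mitosis and histone lists had medians above 4, replication lists between 2.33 and 2.55, and the naive list a median of -1.09.

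Summed over cells, genes of DNA replication were higher in the cycling set almost throughout. All 14 measured members of the origin licensing and helicase list were past 2-fold (median 2.35), as were 24 of 26 of the polymerase, clamp and ligation list (2.33) and all 18 of the S phase chromatin and regulator list (2.55), against 10.9% of all genes. Mcm3, a subunit of the replicative helicase, was at 162 CPM (148 to 176) in cycling and 21.4 CPM (20.1 to 22.7) in non-cycling cells. Its sister subunit Mcm5 was at 128 and 9.15 CPM, and Mcm7 at 168 and 21.4 CPM. Cdc6, which loads the helicase onto origins, was at 24.3 and 0.162 CPM, and Cdc45, which activates it, at 60.1 and 0.990 CPM. Clspn, a mediator of the replication checkpoint, was at 129 and 2.08 CPM, and the ligase Lig1 at 152 and 7.78 CPM. Asf1b, a histone chaperone, stood at 171 and 4.46 CPM, and Gmnn, which blocks relicensing, at 222 and 17.4 CPM.

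The dNTP supply list had 7 of 11 members past 2-fold (median 2.33). Tk1, which salvages thymidine, was at 99.0 and 0.545 CPM, and Tyms, which makes thymidylate, at 248 and 11.7 CPM. Rrm1, the large subunit of ribonucleotide reductase, was at 129 and 8.91 CPM. Single cells overlapped in these genes. With cells thinned to 4000 UMIs, the median of replication and dNTP UMIs was 26.5 in cycling and 7 in non-cycling cells. Of 5951 non-cycling cells, 1819 (30.6%, 29.4 to 31.8%) held at least 9 such UMIs, the lower quartile of cycling cells. Whether some of them were in S phase was not tested. DNA repair genes were past 2-fold in 9 of 12 members (median 2.20), among them Brca1 (31.8 and 0.727 CPM).

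Of 67 histone genes of S phase, 33 reached the floor, most of them only in cycling cells. All 33 were past 2-fold (median 4.38). The linker histone Hist1h1b was at 975 and 2.14 CPM, and Hist1h2ap at 1621 and 3.72 CPM. Most histone transcripts of this kind end without a poly(A) tail, and copies of these genes are nearly identical, so single levels are uncertain. As a group they took 0.606% of UMIs in cycling and 0.0235% in non-cycling cells. Chromatin and tubulin genes followed, with 22 of 24 past 2-fold (median 2.23). Stmn1, which destabilises microtubules, was at 1651 and 15.1 CPM, Hmgb2 at 5067 and 449 CPM, and Tuba1b at 1095 and 138 CPM.

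Mitosis genes, like histones, stood far apart. Of the kinase, cyclin and anaphase promoter list, 20 of 21 members were past 2-fold (median 4.53). The kinetochore and checkpoint list had 24 of 24 (5.07), the kinesin, spindle and cytokinesis list 29 of 29 (4.74), and the condensin and chromosome list 15 of 16 (4.15). Most kinetochore and spindle genes reached the floor only in cycling cells, which fixed their direction. Ccna2, the cyclin of S and G2 phases, was at 193 CPM (178 to 209) in cycling and 0.121 CPM (0.0445 to 0.264) in non-cycling cells. Aurkb, the kinase of the chromosomal passenger complex, was at 130 and 1.66 CPM, and its partner Cdca8 at 331 and 4.02 CPM. Cdc20, the activator of the anaphase-promoting complex, was at 155 and 2.30 CPM. At the kinetochore, Spc24 was at 225 and 1.27 CPM, Cenpe at 168 and 1.17 CPM, and Casc5 (also named Knl1) at 132 and 0.404 CPM.

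Several spindle genes were close to absent from non-cycling cells. Hmmr, which organises spindle poles, was at 165 CPM in cycling and 0.0606 CPM in non-cycling cells, a ratio with an interval of 929 to 13272. Kif2c, a kinesin that shortens microtubules, had 167 UMIs in cycling cells and none in non-cycling cells. Taking 3 UMIs over the whole non-cycling set as the limit that a count of 0 allows, it was at least 858-fold higher. Outside the cell cycle lists, the largest ratios included Mxd3 (86.2 and 0.263 CPM), the phosphatase Cdkn3 (82.2 and 0.626 CPM), Depdc1a (55.7 and 0.121 CPM), the glycosylase Neil3 (54.8 and 0.101 CPM) and Fignl1 (72.2 and 1.05 CPM).

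Promoters of these 2 groups of genes are shown because members of each were high together. RefSeq promoters (GRCm38.p6, 300 bases that span a start site, read 5′ to 3′ on the gene's strand) were searched on both strands for 3 kinds of words. They were the CHR element of DREAM and MuvB targets (TTTGAA), the CCAAT box of NF-Y (CCAAT), and E2F-type words. The E2F words were TTTGGCG and its close forms TTTCCCG as well as TTTGCCG and also TTTCGCG. Genes were picked for display after their matches had been seen, and capitals mark the matches, which may overlap or join. Hmmr lies at chr11:40733388-40733687 (minus strand), Plk1 at chr7:122159185-122159484 (plus strand), Mcm5 at chr8:75109259-75109558 (plus strand) and Mcm3 at chr1:20820263-20820562 (minus strand).
Hmmr: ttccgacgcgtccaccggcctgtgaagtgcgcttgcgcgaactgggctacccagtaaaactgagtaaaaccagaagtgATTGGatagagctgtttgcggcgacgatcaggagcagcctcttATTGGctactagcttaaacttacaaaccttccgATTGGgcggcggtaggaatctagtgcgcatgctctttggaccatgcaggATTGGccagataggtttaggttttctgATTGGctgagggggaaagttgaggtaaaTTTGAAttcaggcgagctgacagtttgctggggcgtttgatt
Plk1: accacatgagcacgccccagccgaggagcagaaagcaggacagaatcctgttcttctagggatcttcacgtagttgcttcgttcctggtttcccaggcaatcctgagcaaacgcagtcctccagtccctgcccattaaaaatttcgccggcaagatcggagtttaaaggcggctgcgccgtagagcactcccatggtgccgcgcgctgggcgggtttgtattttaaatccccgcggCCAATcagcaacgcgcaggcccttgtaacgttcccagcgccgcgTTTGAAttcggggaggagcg
Mcm5: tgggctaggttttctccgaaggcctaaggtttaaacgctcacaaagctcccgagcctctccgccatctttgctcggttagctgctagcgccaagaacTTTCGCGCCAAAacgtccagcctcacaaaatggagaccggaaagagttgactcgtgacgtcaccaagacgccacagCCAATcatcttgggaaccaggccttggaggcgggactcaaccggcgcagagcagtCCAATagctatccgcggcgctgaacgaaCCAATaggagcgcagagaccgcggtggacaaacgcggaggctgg
Mcm3: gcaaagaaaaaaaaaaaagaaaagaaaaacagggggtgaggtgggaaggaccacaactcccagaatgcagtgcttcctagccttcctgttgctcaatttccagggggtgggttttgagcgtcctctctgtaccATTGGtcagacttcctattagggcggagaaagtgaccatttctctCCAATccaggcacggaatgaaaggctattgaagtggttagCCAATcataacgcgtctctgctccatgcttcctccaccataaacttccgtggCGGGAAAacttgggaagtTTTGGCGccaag

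Hmmr held 1 CHR word and 5 CCAAT boxes, and Plk1 held 1 CHR word and 1 CCAAT box, both with no E2F word, while Mcm5 and Mcm3 each held 2 E2F words with 3 CCAAT boxes and no CHR word. Over the 4 mitosis lists, promoters were found for 77 of 95 genes, of which 66.2% held a CHR word, 68.8% a CCAAT box and 20.8% an E2F word. Over the 3 DNA replication lists, promoters were found for 51 of 64 genes, of which 23.5% held a CHR word, 62.7% a CCAAT box and 58.8% an E2F word. Among 4084 of the genes compared that had a promoter, the shares were 15.1%, 43.2% and 14.7%, and over the 27025 genes with a RefSeq promoter they were 20.2%, 41.1% and 7.65%. Genes with more than 1 promoter counted as holding a word if any promoter did. Tyms held none of the words in this window. A match is a word in the sequence, not a measured binding site.

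The cycling cells were not at 1 point of the cycle. For each cell thinned to 4000 UMIs, UMIs of the replication and dNTP lists were taken as a share of these and the mitosis lists, without panel genes. The median share was 38.7% (quartiles 25.1 and 65.0%). By this score 83 cells leaned to mitosis (share under 1/3), 75 were mixed and 44 leaned to S phase (over 2/3), and 64 of the 202 lay within 5 percentage points of a limit, so these are ranges of a score and not cell types. The panel itself is mostly of G2 and M phase genes: the median panel count was 101 UMIs in the mitosis-leaning and 12 UMIs in the S-leaning range. Background was not subtracted from the score. In spleen cells with 0 panel UMIs, replication and dNTP genes summed to 1803 CPM and mitosis genes to 1212 CPM. In such heart cells the sums were 1860 and 1422 CPM. Cells with 0 panel UMIs thus held more S phase than mitosis UMIs. How much of this was background was not tested, and background of this kind would weigh most on cells with few panel UMIs. In heart cycling cells the median share was 51.0%, and 132 of 675 cells (19.6%, 16.6 to 22.8%) leaned to mitosis, against 41.1% (34.2 to 48.2%) in spleen.

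**Figure D2:**
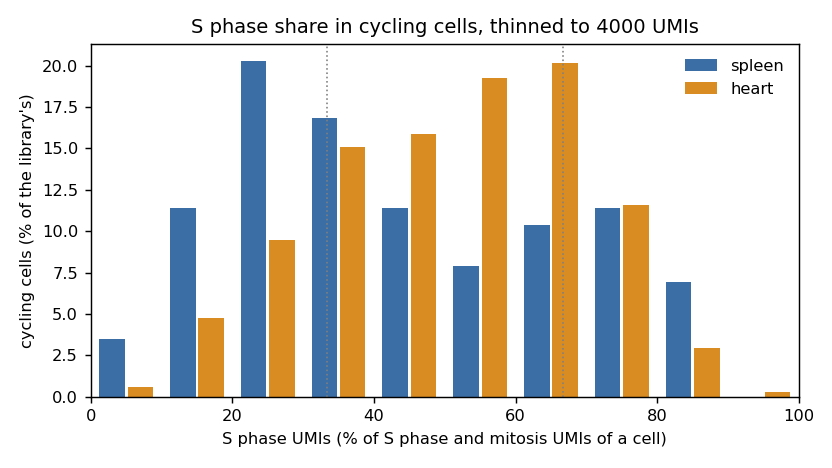
Histogram of the S phase share per cycling cell (S phase UMIs as a percent of S phase and mitosis UMIs, cells thinned to 4000 UMIs), as a percent of the 202 spleen and 675 heart cells, with dotted lines at the limits of the ranges. Spleen cells peaked at 20 to 30% (20.3% of cells), heart cells at 60 to 70% (20.1% of cells).

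Replication-dependent histones, which were not in the score, summed to 2002 CPM in the S-leaning, 7352 CPM in the mixed and 7113 CPM in the mitosis-leaning range, and 235 CPM in non-cycling cells. They were thus lowest in the S-leaning range, where 30 of 34 members were past 2-fold lower than in the mitosis-leaning range. Over all 5321 genes in that comparison, 6.56% were past 2-fold lower and 5.36% higher. Effector and naive genes were present along the whole score: the S100 list was at 22811, 22134 and 23526 CPM, the Th1 list at 2668, 2980 and 3513 CPM, and the naive list at 1861, 2090 and 2301 CPM, in the same order. The haemoglobin-rich barcode was S-leaning. The dendritic cell list was at 6.97 CPM in the S-leaning, 9.10 CPM in the mixed and 65.4 CPM in the mitosis-leaning range.

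G1 and inhibitor genes were mixed, and are read beside 10.9% of all genes past 2-fold higher and 2.44% lower. Of 9 measured G1 cyclins, kinases and their partners, 3 were past 2-fold higher: the pocket protein gene Rbl1 (51.1 and 12.8 CPM), Cdk2 (27.4 and 6.77 CPM) and Cdk6 (46.1 and 13.7 CPM). Ccnd2, a cyclin of early G1, was at 207 and 311 CPM. Of 17 inhibitor and quiescence genes, 1 was past 2-fold higher and 2 past 2-fold lower (median -0.24). The higher one was Cdkn2c, which encodes the p18 inhibitor of Cdk4 and Cdk6, at 147 CPM (134 to 161) and 8.67 CPM (7.86 to 9.53). The lower ones were Btg1, an antiproliferative gene (314 and 993 CPM), and Foxp1, a factor of quiescence (102 and 206 CPM). Cdkn1b, the p27 inhibitor, was at 68.2 and 95.7 CPM.

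Beyond the cell cycle, cycling spleen cells carried the transcripts of effector cells. Of 16 Th1 and cytotoxic genes, 12 were past 2-fold higher and none lower (median 1.86), beside 10.9% and 2.44% of all genes. Gzmb, the granzyme B gene, was at 411 CPM (389 to 434) in cycling and 25.5 CPM (24.1 to 26.9) in non-cycling cells. Nkg7, a granule protein gene, was at 612 and 139 CPM, and the homing receptor Cxcr6 at 127 and 20.7 CPM. Gzmk was at 37.1 and 5.15 CPM. Single cells weighed on some of these: 1 cell gave 50.9% of the Gzma UMIs (50.8 and 3.68 CPM, or 25.1 CPM without that cell). For Ifng, the main Th1 cytokine, 1 cell gave 21.2% (55.7 and 12.2 CPM, or 44.1 CPM without it). The chemokine gene Ccl5 was at 504 and 279 CPM, with 23.1% from 1 cell (390 CPM without it). Cxcr3, a Th1 homing receptor, was at 228 and 192 CPM.

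The S100, galectin, annexin and migration list had 15 of 24 members past 2-fold higher and none lower (median 1.35), beside the same 10.9% and 2.44%. Lgals3, a galectin gene, was at 361 CPM (340 to 382) and 23.8 CPM (22.4 to 25.2). Its relative Lgals1 was at 2734 and 375 CPM, S100a4 at 2683 and 355 CPM, and the annexin genes Anxa2 at 434 and 63.7 CPM and Anxa1 at 26.8 and 3.49 CPM.

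Genes of naive and stem-like T cells were lower. Of 19 members, 11 were past 2-fold lower and none higher (median -1.09), against 2.44% of all genes. Dapl1 was at 40.2 CPM in cycling and 238 CPM in non-cycling cells, and Id3, an inhibitor of E proteins, at 98.4 and 427 CPM. Ccr7, which guides T cells into lymph nodes, was at 26.5 and 115 CPM. Tcf7, a factor of stem-like T cells, was at 194 and 460 CPM, Bcl2 at 28.0 and 49.9 CPM, Il7r at 121 and 151 CPM, and Klf2, a factor of T cell egress, at 756 and 895 CPM. Outside the lists, the lowest ratios included Slfn5 (7.16 and 63.1 CPM), Tcp11l2 (8.10 and 53.8 CPM), the demethylase Kdm5b (6.85 and 41.2 CPM) and Pik3ip1, a PI3K inhibitor (9.03 and 48.5 CPM).

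These differences ran through most cycling cells. With every cell thinned to 4000 UMIs, a cycling spleen cell held a median of 95 UMIs of the S100 list (quartiles 63 and 128), and a non-cycling one 18. Of the naive list the median was 8 UMIs (quartiles 5 and 11) against 16. Of the 202 cycling cells, 187 were above the non-cycling median of the S100 list, 173 above that of the Th1 list and 182 below that of the naive list. Of metabolic lists, 192 were above the non-cycling median of nuclear oxidative phosphorylation genes (medians 109 and 77 UMIs). For glycolysis genes 174 were above (16 and 11 UMIs). Thinning keeps the lower ribosomal protein share of cycling cells, which lifts other lists. With totals without ribosomal protein, mitochondrial and Malat1 UMIs, median log2 ratios of these metabolic lists were 0.16 and -0.07, against 1.13 for the S100 list. Cells of each library were next split into quartiles by their UMIs of a list. In spleen, 179 of the 202 cycling cells fell in the top quartile of the S100 list, where 10.9% of cells were cycling (9.45 to 12.5%), against 0.301 to 0.674% in the other quartiles. The top quartile of the Th1 list held 158 (9.66% cycling, 8.27 to 11.2%). The lowest quartile of the naive list held 144 (10.2%, 8.71 to 11.9%) and its top quartile 4 (0.227%, 0.0619 to 0.580%). The top quartile of oxidative phosphorylation held 174 (10.2%, 8.82 to 11.8%) and that of glycolysis 135 (8.31%, 7.01 to 9.76%). In heart, the share of cycling cells was 5.21% in the lowest and 28.0% in the top quartile of the S100 list, and 18.3% and 14.1% in those of the Th1 list.

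**Figure D3:**
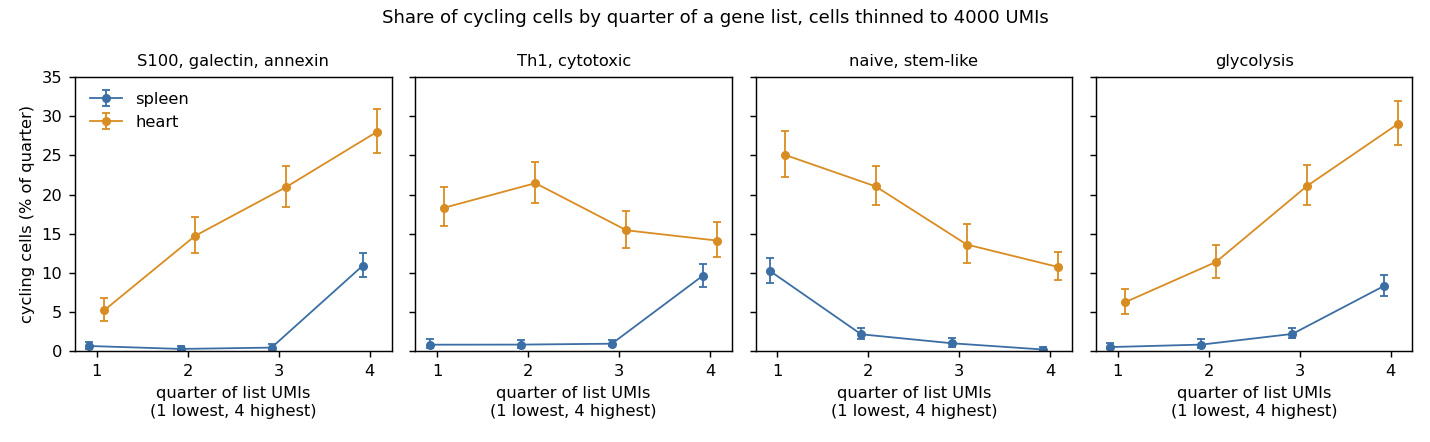
Percent of cells that were cycling in each quartile of 4 gene lists, in spleen and heart, with exact 95% binomial intervals of counting error (cells thinned to 4000 UMIs). Cycling spleen cells were concentrated in the top quartile of the S100 list (10.9%) and the lowest quartile of the naive list (10.2%).

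Non-cycling spleen cells high in the S100 list also carried Th1 transcripts. Of 14 Th1 genes, 11 were past 2-fold higher in the top quartile of the S100 list than in other non-cycling cells (median 2.61), against 1.84% of all genes higher and 0.248% lower. Cycling cells were therefore also set against the 1328 non-cycling cells in the top quartile of the S100 list, a comparison chosen after seeing the data. There 4 of 16 Th1 genes were past 2-fold higher (median 0.40) and 7 of 18 naive genes past 2-fold lower (-0.87). Of all genes, 8.85% were past 2-fold higher and 1.6% lower in that comparison. Gzmb had a log2 ratio of 1.92 there against 3.96 with all non-cycling cells, and Lgals3 1.81 against 3.87, though Lgals3 is in the list that chose those cells. Ccl5 was lower, at -0.68 against 0.85. The kinetochore list had a median of 5.19 and the helicase list 2.39 there, against 5.07 and 2.35. The dNTP list was at 1.93 against 2.33, the G1 list at 0.34 against 0.81, and the inhibitor list at -0.51 against -0.24.

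**Figure D4:**
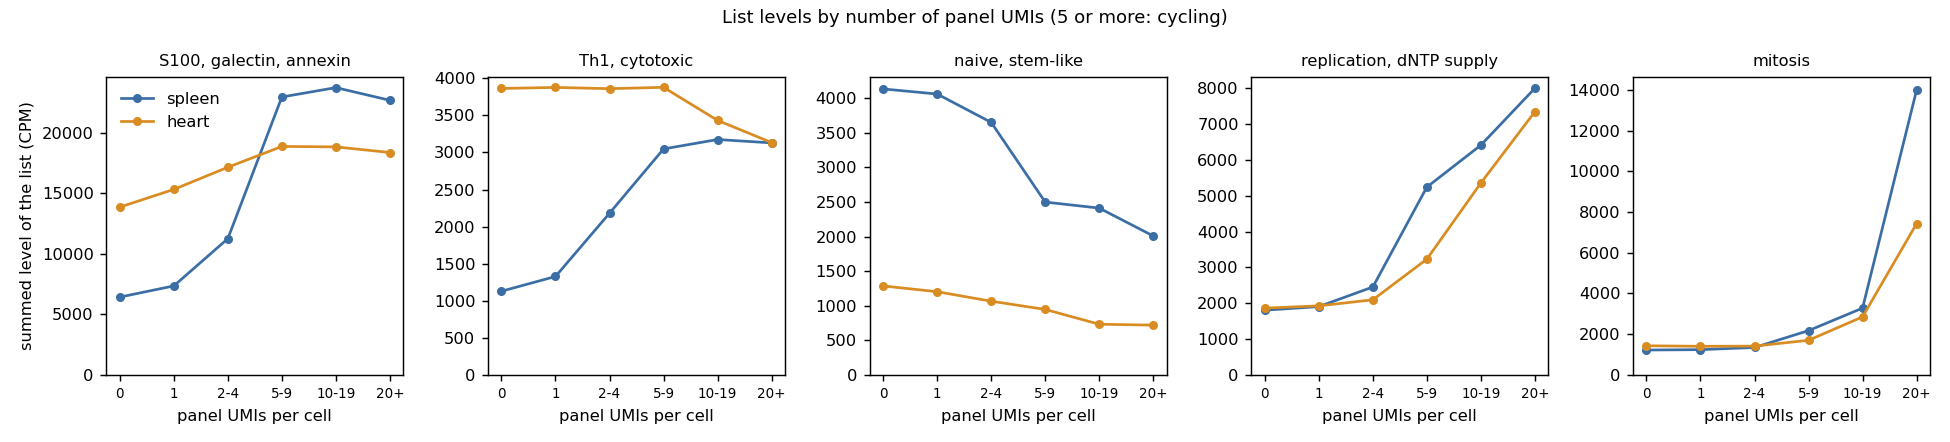
Summed CPM of 5 groups of genes against the panel UMIs per cell in spleen and heart (cells with 5 or more are cycling). In spleen the S100 list was at 6415 CPM in cells with 0 panel UMIs, 11247 CPM with 2 to 4 and 22683 CPM with 20 or more, and the naive list at 4137 and 2009 CPM at the ends.

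Metabolic lists had smaller median ratios. Beside 10.9% of all genes higher and 2.44% lower, glycolysis had 3 of 16 members past 2-fold higher and 1 lower (median 0.41, or -0.07 with the smaller totals). Gapdh was at 1735 and 791 CPM, Pgk1 at 45.1 and 18.4 CPM, and Tpi1 at 82.5 and 34.7 CPM, while Pdk1, which restrains pyruvate oxidation, was at 12.1 and 41.3 CPM. Ldha, the lactate dehydrogenase A gene, was at 639 and 468 CPM. Oxidative phosphorylation genes encoded in the nucleus had 2 of 75 past 2-fold (0.47), with Ndufb7 at 514 and 251 CPM and Cox5a at 698 and 343 CPM. The list of nucleotide and one-carbon synthesis had 4 of 23 (0.51), with Phgdh, the first enzyme of serine synthesis, at 191 and 60.0 CPM. The proteasome list had 2 of 46 (0.46). With the smaller totals, whose median over all genes was -0.25, the medians of the oxidative phosphorylation and proteasome lists were 0.16 and 0.15. The tricarboxylic acid cycle list had 0 of 16 past 2-fold (0.29, or -0.01 with the smaller totals) and the sterol and fatty acid list 1 of 11 (0.27, or -0.15). Cytosolic ribosomal protein genes had a median of -0.51, and Rps27 was at 3053 and 7744 CPM.

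Signalling lists are read beside the same shares, 10.9% of all genes higher and 2.44% lower. The T cell receptor signalling list had 1 of 11 higher and 1 lower (median -0.24), the IL-2 and STAT5 list 3 of 13 higher (-0.32), and the type I interferon list 2 of 15 lower (-0.22). Cd69, an early activation marker, was at 29.0 and 60.8 CPM, and Socs2, a STAT5 target, at 26.8 and 5.86 CPM. Il2rb was at 78.2 and 61.5 CPM and Myc at 9.65 and 14.5 CPM. The Tfh list had 5 of 13 lower and 1 higher (-0.45, or 0.24 for genes of at least 100 CPM), with Il6st at 23.7 and 83.9 CPM and Cxcr5 at 17.4 and 37.2 CPM. The regulatory T cell list had 2 of 6 higher and 0 lower (0.89), and summed to 521 CPM in cycling and 258 CPM in non-cycling cells. Foxp3, the factor of regulatory T cells, had 1 UMI in all cycling cells (0.311 CPM, against 0.465 CPM).

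Cycling heart cells, chosen by the same rule, were the nearest set for comparison. Within heart, cycling and non-cycling cells shared the cell cycle pattern, with medians of 2.82 for the helicase list and 3.63 for the kinetochore list, against 9.06% of 4833 genes past 2-fold higher and 1.7% lower. Some T cell lists differed from those in spleen: the Th1 list had a median of -0.21 and the S100 list 0.04 in heart, against 1.86 and 1.35. The regulatory T cell list was at -0.02 against 0.89. Naive genes were lower in both libraries, with 4 of 12 past 2-fold lower and 0 higher in heart (median -0.49, against -1.09 in spleen). The Tfh list was at -0.53 in heart and -0.45 in spleen, and the T cell receptor signalling list at -0.51 and -0.24. The Th1 list summed to 3124 CPM in cycling and 1168 CPM in non-cycling spleen cells, and to 3292 and 3869 CPM in the heart sets. For the Th1 list both heart sets thus stood near or above the level of the cycling spleen set, and the non-cycling spleen set was below all of them. The S100 list summed to 22842.5 CPM in cycling and 6604 CPM in non-cycling spleen cells, and to 18499 and 14344.5 CPM in the heart sets. For that list both heart sets were below the cycling spleen set.

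**Figure D5:**
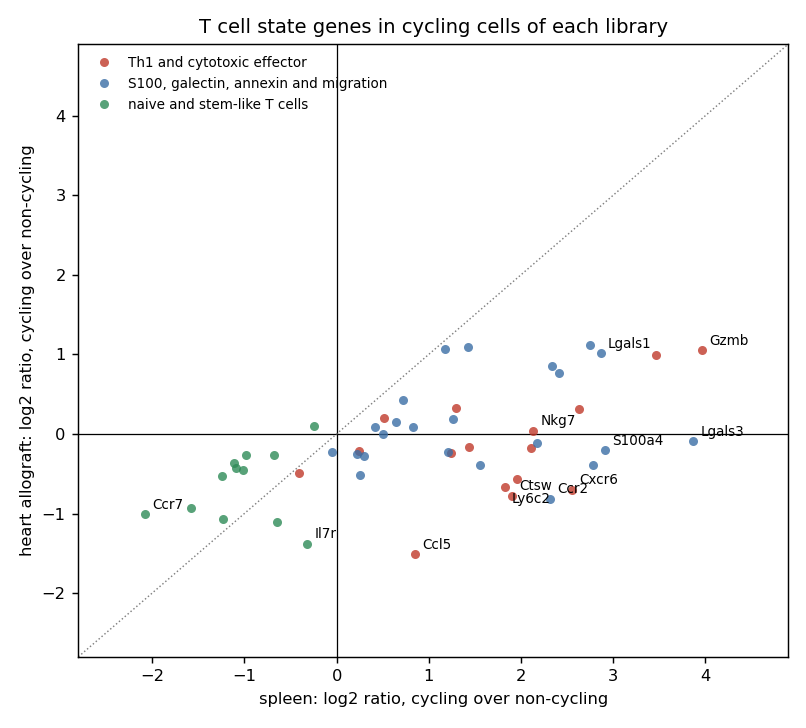
Log2 ratio of cycling over non-cycling cells in spleen (x axis) and heart (y axis) for genes of 3 lists with at least 20 CPM in either set of each library, with a dotted line of equal ratios. Effector genes such as Gzmb (3.96 and 1.05) lie to the right of the line, and Cxcr6 (2.56 and -0.70) has opposite signs.

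Set against each other directly, 5.85% of 5144 genes were past 2-fold higher in cycling spleen than in cycling heart cells and 5.27% past 2-fold lower. Mitosis genes were higher in spleen, with 24 of 29 spindle genes and 15 of 24 kinetochore genes past 2-fold, against 7 of 21 genes of the kinase and cyclin list, 3 of 16 condensin genes and 0 of 14 helicase genes. Naive genes were also higher in spleen, with 11 of 18 past 2-fold higher and 1 lower. Klf2 was at 756 CPM in spleen and 59.9 CPM in heart cycling cells, Id3 at 98.4 and 6.48 CPM, Dapl1 at 40.2 and 0.766 CPM, and Dtx1, a regulator of Notch signalling, at 72.2 and 0.418 CPM. Glycolysis genes were lower in spleen, with 13 of 19 past 2-fold, and Ldha was at 639 and 1416 CPM. T cell receptor signalling genes were lower as well, with 11 of 19 past 2-fold. Nr4a3 was at 1.25 and 58.8 CPM, Crem at 8.72 and 304 CPM, Rgs2 at 1.25 and 87.3 CPM, and Neurl3 at 6.85 and 269 CPM. Rgs16 was at 5.92 and 224 CPM, with 57.9% of its spleen UMIs from 1 cell. The heat shock gene Hspa1b was at 0.311 and 44.8 CPM. Non-cycling cells differed in the same directions for the glycolysis, T cell receptor signalling and naive lists. In non-cycling cells the glycolysis list summed to 2963 CPM in spleen and 8122 CPM in heart. The T cell receptor signalling list summed to 1492 and 5112 CPM in those sets, and the naive list to 4122 and 1257 CPM. In these values the organ cannot be told apart from the library or its sort.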

How the data were processed

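Wild-type TEa cells from 1 spleen and 1 heart allograft library were analysed from the deposited matrices of raw UMI counts, made with 10x 3' v3 chemistry per the labels' protocols. Those protocols describe sorted cells but also mention nuclei in the loading step, and the values were read as from cells. Cells were taken from all listed barcodes by the rule in the text. Both matrices came from Cell Ranger 3.0.2 per the file headers. The submitters' processing notes give another version, Cell Ranger 7.0.0, besides Seurat 4.0.0 and the mm10 build. Whether reads in introns were counted is not stated. The Ldha-/- matrix (Cell Ranger 7.0.1 per its header) was used for barcodes alone.

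Counts were summed per set and scaled to CPM with Python 3.11.15, numpy 2.4.6, scipy 1.17.1 and pandas 2.3.3. The totals were 3211692 UMIs in cycling and 49507130 UMIs in non-cycling spleen cells, so a count of 0, which allows 3 counts, limits a gene to 0.934 and 0.0606 CPM. Genes with at least 20 CPM in either set were compared, with a pseudocount of 1 CPM and a threshold of 2-fold. Panel and filter genes were left out. The functions were checked on simulated counts.

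The members and gene lists were chosen with earlier results of these data known. Named genes were the 12 with the highest ratio of all, the 12 highest and 12 lowest outside the cell cycle lists, the 8 highest and 8 lowest against heart, 11 genes always named, and up to 6 members of each list by size of ratio. Receptor, mitochondrial, haemoglobin, sex-linked and unnamed genes were left out of those picks. Alternatives changed the floor, pseudocount, totals, thresholds, depth and cell filters. Some genes are not reported here.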

Additional observations from a re-analysis of the deposited data

Results flagged for a closer look

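Of 192 T cell state genes compared in both libraries, 6 had opposite directions in the cycling cells of spleen and heart, by at least 1.5-fold in each. The same count over all genes was not made, so whether 6 is many or few is not known. The difference between the libraries was not tested, and each value rests on 1 library. Cxcr6, a homing receptor, had a log2 ratio of 2.56 in spleen and -0.70 in heart. Ccr2, a receptor for monocyte chemokines, had 2.32 and -0.82. The cathepsin gene Ctsw had 1.90 and -0.78, and Ly6c2 had 1.82 and -0.66. Pim1, a kinase induced by cytokines, had 1.40 and -0.70. Ccl5 had 0.85 and -1.51, with 23.1% of its UMIs in cycling spleen cells from 1 cell. Against non-cycling spleen cells of the top S100 quartile its ratio was -0.68, of the same sign as in heart. The non-cycling heart cells were at higher levels of all 6 than the non-cycling spleen cells, with Cxcr6 at 384 against 20.7 CPM and Ccl5 at 713 against 279 CPM.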

How the results depend on the processing

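The cycling share of 3.08% was 4.44% with at least 3 and 2.52% with at least 10 panel UMIs, and 4.28% with at most 5% mitochondrial UMIs. It was 2.22% when cells were thinned to 2000 UMIs and the limit was at least 3 panel UMIs, so depth and limit both changed. The median S phase share was 50.0% with at least 3 panel UMIs. The 569 higher and 128 lower of 5239 genes were 906 and 352 of 8553 with a floor of 5 CPM. With a floor of 100 CPM they were 217 and 34 of 1501. Lower genes numbered 554 of 6546 with totals without mitochondrial, ribosomal protein and Malat1 UMIs, and 56 of 5170 with at least 3 panel UMIs. With cells thinned to 4000 UMIs they numbered 207 of 5327. There the sets were redrawn after thinning, as at least 3 panel UMIs against none. In a comparison added after seeing the data, with non-cycling cells of the top S100 quartile, lower genes numbered 84 of 5243. Against heart, 301 higher and 271 lower of 5144 genes were 658 and 419 of 8347 with a floor of 5 CPM. With a floor of 100 CPM they were 56 and 100 of 1528. These settings were also added after seeing the data. With depth-matched non-cycling cells (median 14616 UMIs) 559 of 5284 genes were higher and 167 lower. Of the named genes past 2-fold, 5 changed sign in some setting, and smaller ratios such as that of Ccl5 (-0.68 against the top S100 quartile) could also do so. Rgs16 was at -0.052 against depth-matched cells. With thinned cells and their redrawn sets Hba-a1 was at -3.87, Hba-a2 at -2.51, Hbb-bs at -4.28 and Hbb-bt at -2.27. Without the 2 haemoglobin-rich barcodes Hba-a2 was at -0.055 and Hbb-bs at -0.33. The cause of the other changes was not tested. No paired analysis was possible because each group has 1 library, and no library could be left out.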
